A study of Mus musculus with 2 samples.

Results

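The endothelin and nitric oxide pathways set the tone of kidney vessels from opposite sides, and 8 of their genes were followed through the cells of injured mouse kidneys: the ligand Edn1, its processing enzyme Ece1, the receptors Ednra and Ednrb, the nitric oxide synthases Nos3 and Nos1, and the subunits of the nitric oxide receptor, Gucy1a1 and Gucy1b1. The 8 genes were chosen by name from the 32285 genes measured, with earlier results of these data known. All 8 were detected in both libraries. Their levels were read in endothelial and mural subtypes, in tubule segments and in other classes of cells.

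The study compared 2 single-cell RNA libraries of kidney, both taken at day 14 after ischemia reperfusion injury of 1 kidney by clamping of its artery. One library came from a mouse group of genotype Cre- and is called control. The other came from Cdh5-CreERT2; Phd3f/+ mice, in which a tamoxifen-inducible Cre driven by the endothelial gene Cdh5 can remove 1 of the alleles of Phd3 (Egln3), an oxygen-sensing prolyl hydroxylase, and is called haplodeficient. Both groups received 4 tamoxifen injections after injury and both libraries were in batch 1. Whether the control animals carried the floxed allele, and how many animals entered a library, was not stated in the labels, and no uninjured kidney was analysed here. With 1 library per group there was no replicate check and no test of any difference: every interval given is a 95% interval for counting error alone, and differences are between 2 libraries, not shown to be between genotypes.

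Endothelin-1 is made as a large precursor that Ece1, a membrane metalloprotease, cuts to the active peptide. Ednra on smooth muscle and pericytes drives contraction, whereas Ednrb on endothelium clears the peptide and promotes nitric oxide release, and in collecting duct Ednrb opposes salt and water uptake. Nos3, the endothelial synthase, and Nos1, the neuronal synthase found in kidney mainly in the macula densa, make nitric oxide, which binds the heterodimer of Gucy1a1 and Gucy1b1 in mural cells and raises cyclic GMP.

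The stretch of DNA by the start of Edn1 is shown because the study concerns an oxygen-sensing enzyme and the stretch holds the core letters ACGTG of a hypoxia response element. It lies just inside the annotated gene, 30 bases of chr13:42301484-42301513, plus strand, from RefSeq on GRCm38.p6, with the match to ACGTG and the match to AGATAA, the core bound by GATA factors, in capitals, both read on the opposite strand.
Edn1: TTATCTctggctgCACGTtgcctgtgggtg
Windows of 250 bases before to 50 bases after the start were searched on both strands. ACGTG was in 19.6% and AGATAA in 11.2% of all 32851 windows, so neither match is rare. A window of Ece1 and a window of Gucy1a1 also held ACGTG. For the genes of mural cells, the bases before the start of Ednra (chr8:77724465-77724702, minus strand) and of Gucy1b1 (chr3:82074712-82074961, minus strand) are shown because the levels of these genes followed each other most closely of all pairs of the 8 across cell classes.
Ednra: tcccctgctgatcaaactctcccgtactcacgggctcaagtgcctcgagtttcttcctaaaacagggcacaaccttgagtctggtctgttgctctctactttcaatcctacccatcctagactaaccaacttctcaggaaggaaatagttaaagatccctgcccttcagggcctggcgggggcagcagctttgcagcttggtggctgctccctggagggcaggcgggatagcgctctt
Gucy1b1: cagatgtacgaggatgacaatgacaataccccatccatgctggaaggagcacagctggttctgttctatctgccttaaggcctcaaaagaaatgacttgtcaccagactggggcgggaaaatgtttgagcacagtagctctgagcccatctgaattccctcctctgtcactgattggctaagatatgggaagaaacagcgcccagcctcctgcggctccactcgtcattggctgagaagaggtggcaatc
Neither window held a match to the hypoxia or GATA core. A TEAD factor core, CATTCC, found in 14.7% of all windows, was in neither, nor was the core bound by Krüppel-like factors, CACCC, found in 57.5%. A CArG box, the serum response factor site, found in 1.63%, was in neither. This says only that these letters are not there. Nos3 had no entry among the promoter sequences.

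The genes lie on 6 chromosomes of GRCm38 (GENCODE M21), and all 8 are protein-coding. Edn1 (ENSMUSG00000021367) spans chr13:42301476-42307990 and Ednra (ENSMUSG00000031616) spans chr8:77663031-77724464. Ednrb (ENSMUSG00000022122) spans chr14:103814625-103844402 and Ece1 (ENSMUSG00000057530) spans chr4:137862237-137965229. Nos3 (ENSMUSG00000028978) at chr5:24364810-24384474 and Nos1 (ENSMUSG00000029361) at chr5:117781032-117958840 share a chromosome. Gucy1b1 (ENSMUSG00000028005, chr3:82032006-82074689) and Gucy1a1 (ENSMUSG00000033910, chr3:82092427-82145789) are neighbours on the minus strand, 17737 bases apart. Nos3 overlaps Atg9b and Gm15587 on the other strand, but in arterial-like cells these had 0 and 2 UMIs (Atg9b) and 4 and 5 UMIs (Gm15587) in the control and the haplodeficient library, against 303 and 209 of Nos3.

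After filtering, 8737 control and 9222 haplodeficient cells remained, with a median of 8762 and 5471.5 UMIs (unique molecular identifiers, counted transcripts) and 10.2% and 2.69% mitochondrial UMIs. Levels are in CPM, the UMIs of a gene summed over the cells of a class and library and scaled to a common total of all their UMIs. Classes were named from marker genes and are called X-like, and the 8 genes and their pathway were left out of the clustering. The endothelial-like class (352 control and 765 haplodeficient cells) carried UMIs of all 10 endothelial markers in both libraries, at a summed 8030 and 8472 CPM, beside 120 and 107 CPM of 10 mural markers. The mural-like class of pericytes and smooth muscle (191 and 270 cells) carried all 10 mural markers, at 22287 and 23822 CPM. Proximal tubule markers were present at 403 and 14.9 CPM in endothelial-like and 978 and 44.4 CPM in mural-like cells, so control cells held more tubule RNA, whose part in the differences below was not tested. The targeted gene Egln3 was at 25.8 CPM (19.6 to 33.3) in control and 20.1 CPM (16.2 to 24.7) in haplodeficient endothelial-like cells, with overlapping intervals. Barcodes shared by the libraries numbered 28. A further 53 control and 95 haplodeficient cells clustered as endothelial but carried mural or podocyte markers, were left out of the class, and held Ednra at 89.7 and 57.4 CPM and Gucy1a1 at 95.3 and 162 CPM.

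The endothelial-like class was not made up alike in the libraries. Capillary-like cells were 54 of the control and 238 of the haplodeficient endothelial-like cells (15.3% and 31.1%), arterial-like cells 56 and 77 (15.9% and 10.1%), descending vasa recta-like cells 92 and 160 (26.1% and 20.9%), glomerular-like cells 32 and 79, and activated cells with selectin genes 53 and 73. A further cluster of 65 and 138 cells, led by Calca, had too few markers for a name and is called Calca-led. Arterial-like cells gave 22.3% of the control but 11.9% of the haplodeficient endothelial UMIs. Values are therefore given by subtype, and the class as a whole is also given with each subtype weighted equally.

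Edn1, the ligand, was highest in arterial-like endothelium, with a control level of 281 CPM (236 to 331) and a haplodeficient level of 298 CPM (254 to 347). Descending vasa recta-like cells followed at 179 and 204 CPM and Calca-led cells at 152 and 131 CPM. In control cells the intervals of the arterial-like and descending vasa recta-like subtypes did not overlap, while those of the descending vasa recta-like and Calca-led subtypes did. Capillary-like, activated and glomerular-like cells stood far lower, between 20.1 and 62.1 CPM, with 5 to 49 UMIs each.

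Between the libraries, Edn1 in each of its 3 high subtypes differed by less than counting error. The ratio of haplodeficient to control CPM was 1.06 (0.842 to 1.34) in arterial-like, 1.14 (0.907 to 1.43) in descending vasa recta-like and 0.863 (0.618 to 1.21) in Calca-led cells. Over the whole endothelial-like class it was 0.819 (0.715 to 0.939), from 151 CPM in control to 123 CPM in haplodeficient cells. With each of the 6 subtypes weighted equally the direction turned, to 115 CPM in control and 124 CPM in haplodeficient cells, a ratio of 1.09. In glomerular-like cells Edn1 was at 23.3 CPM (6 UMIs in 4 of 32 cells) in control and 62.1 CPM (49 UMIs in 20 of 79 cells) in haplodeficient cells, a ratio of 2.67 (1.14 to 7.61), with Poisson intervals that overlapped. Its log2 ratio of 1.25 became 1.74, past the size rule given with Ece1, without the richest cell of each library, and turned to -0.72 when each cell was named on its own markers.

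Most Edn1 transcripts lay outside endothelium. Endothelial-like cells held 12.7% of the control and 17.7% of the haplodeficient Edn1 UMIs, and tubules held most of the rest. Intercalated-like cells, the acid-base cells of the collecting duct, were at 59.8 CPM in control and 48.5 CPM in haplodeficient cells. Descending thin limb-like cells were at 42.7 and 55.8 CPM, distal convoluted tubule-like cells at 43.5 and 44.9 CPM, and principal or connecting tubule-like cells at 37.0 and 38.7 CPM. Podocyte-like cells had 48.4 and 47.1 CPM. Thick ascending limb-like cells were lower, at 20.5 and 22.9 CPM, and proximal tubule-like cells lowest of the segments, at 1.90 and 4.94 CPM. The free RNA of empty barcodes held Edn1 at 15.4 CPM in control and 21.3 CPM in haplodeficient, but only a small part of a cell's UMIs is free RNA. Its estimated part of the Edn1 UMIs was 4.86% and 4.12% in thick ascending limb-like cells and 21.2% and 9.01% in proximal tubule-like cells. Between the libraries the ratio was 1.31 (1.12 to 1.52) in descending thin limb-like cells, 1.31 (1.08 to 1.59) in injured tubule-like cells (30.5 and 39.9 CPM) and 0.811 (0.682 to 0.964) in intercalated-like cells.

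**Figure D1:**
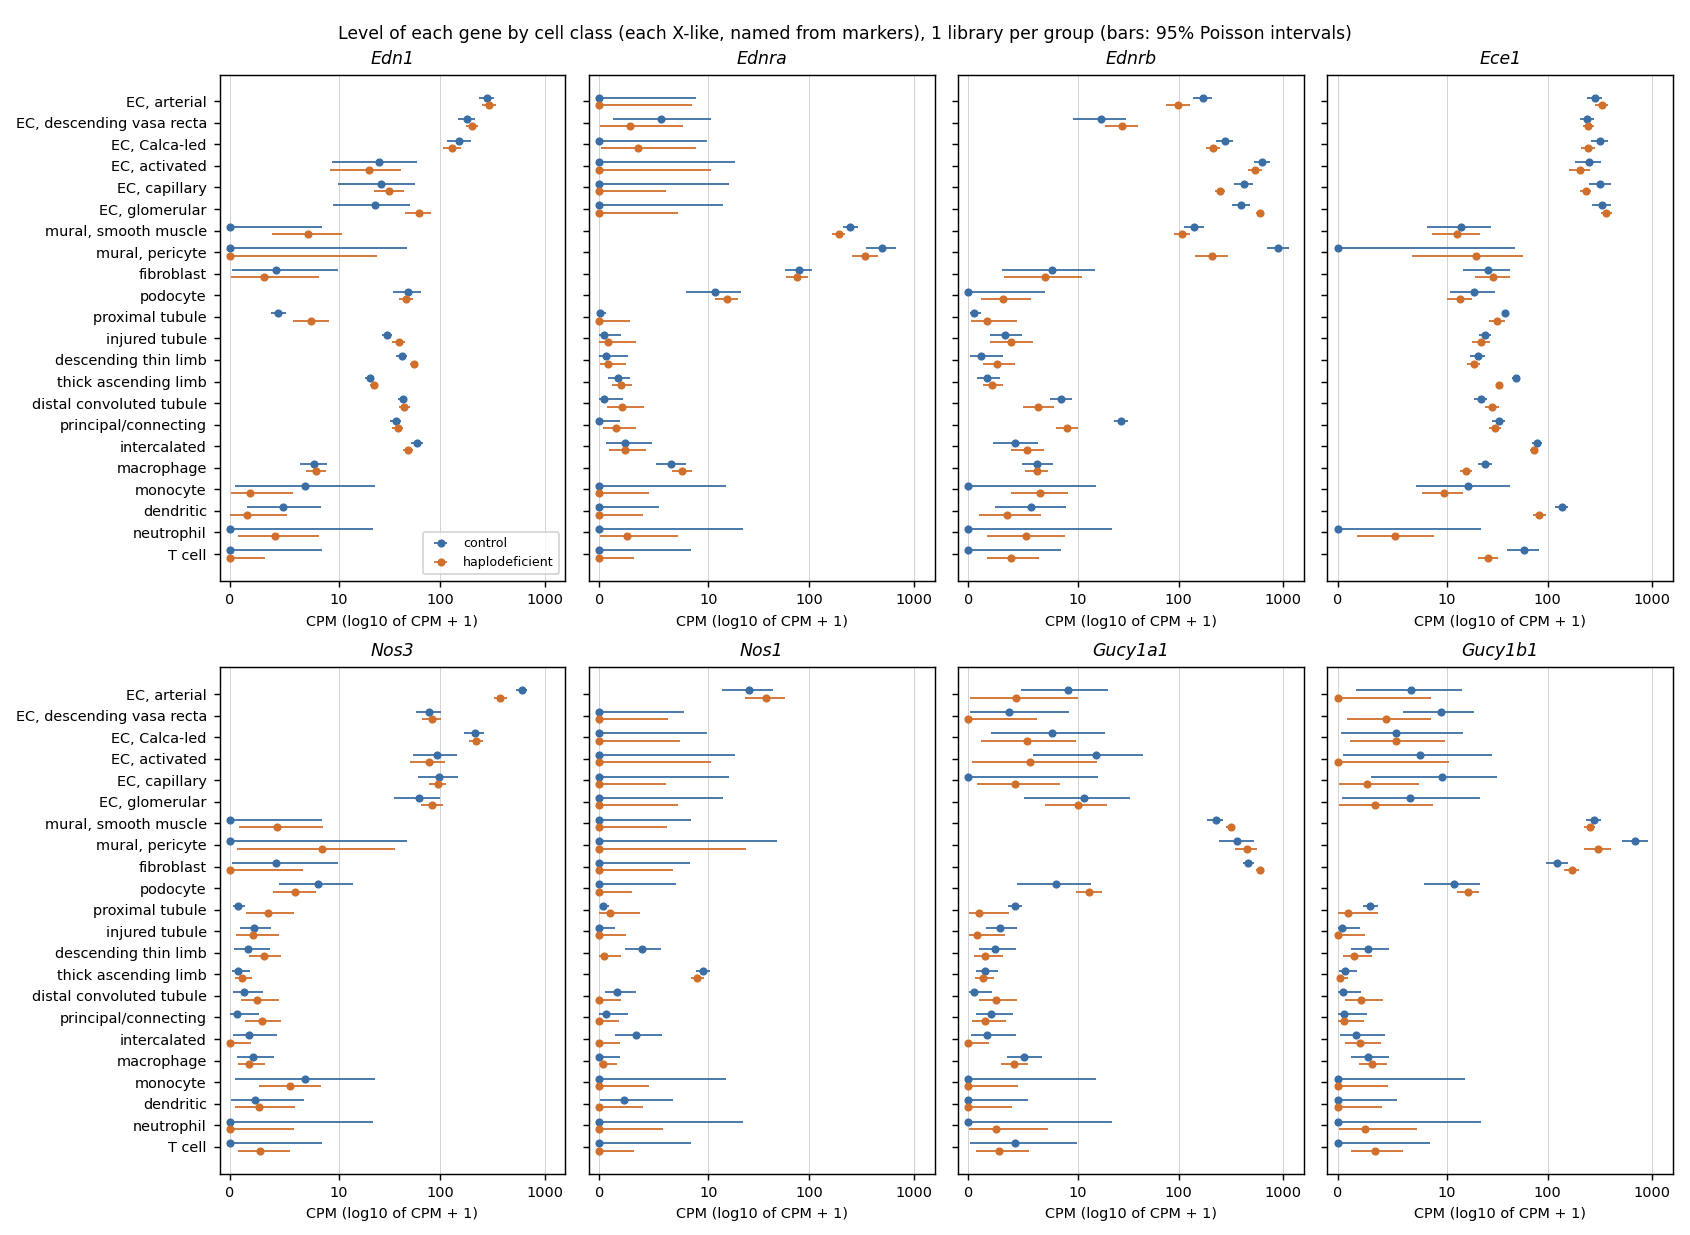
Level of each gene (horizontal axis, CPM on a scale of log10 of CPM plus 1) in 22 cell classes for the control (blue) and haplodeficient (orange) library. Bars are 95% Poisson intervals for counting error. Edn1, Ece1 and Nos3 reach their highest levels in endothelial (EC) subtypes, and Ednra, Gucy1a1 and Gucy1b1 in mural or fibroblast classes. Ednrb is highest in pericyte-like cells in control and in glomerular-like EC in haplodeficient cells.

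Ece1, the enzyme that activates endothelin, was found in all 6 endothelial subtypes, though not at 1 level. Its lowest level among them was 204 CPM (159 to 257), in haplodeficient activated cells. Its highest was 365 CPM (324 to 409), in haplodeficient glomerular-like cells, and these intervals did not overlap. Of the 8 genes only Ece1 was eligible for comparison in proximal tubule-like cells, at 38.7 CPM in control and 32.3 CPM in haplodeficient cells. That class held 29.4% of the control but 2.83% of the haplodeficient Ece1 UMIs, and had 3004 control but 318 haplodeficient cells. Eligible means that the 2 libraries averaged 10 CPM or more in the class and together held 30 UMIs or more. Intercalated-like cells had 79.2 and 73.3 CPM and dendritic-like cells 136 and 82.8 CPM. Mural-like cells had only 12.5 and 13.7 CPM, from 8 and 17 UMIs, of which an estimated 10.8% and 13.9% were free RNA.

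Ece1 in the endothelial-like class was at 280.5 CPM in control and 269 CPM in haplodeficient cells, a ratio of 0.959 (0.871 to 1.06). Among its subtypes, capillary-like cells (318 and 231 CPM, ratio 0.728, 0.558 to 0.958) and Calca-led cells (314 and 245 CPM, ratio 0.779, 0.616 to 0.989) were lower in the haplodeficient library, and the intervals of the other 4 included 1. In 4 immune or tubule classes it was lower in the haplodeficient library beyond counting error. The ratio was 0.686 (0.619 to 0.761) in thick ascending limb-like, 0.645 (0.517 to 0.806) in macrophage-like, 0.608 (0.493 to 0.749) in dendritic-like and 0.448 (0.296 to 0.692) in T-cell-like cells. The T-cell-like value, 58.8 CPM (33 UMIs) in control against 26.4 CPM (84 UMIs), passed the size rule used here, an absolute log2 ratio of at least 1 after adding 5 CPM with Poisson intervals that do not overlap. That rule called 2.64% of 7766 eligible genes in T-cell-like cells, 1.8% lower in the haplodeficient library. Without the cell of each library richest in Ece1 the log2 ratio fell from -1.02 to -0.84, below the rule. The macrophage-like log2 ratio was -0.50, but 0.84 with separate clustering of the libraries. Distal convoluted tubule-like cells went the other way, with a ratio of 1.30 (1.05 to 1.61).

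Ednrb, the endothelial and collecting duct receptor, split the endothelium. Activated cells had 631 CPM (525 to 753) in control and 542 CPM (467 to 625) in haplodeficient cells. Glomerular-like cells had 400 and 607 CPM and capillary-like cells 424 and 250.04 CPM. Descending vasa recta-like cells had only 17.5 CPM (12 UMIs in 8 of 92 cells) in control and 28.5 CPM (30 UMIs in 18 of 160 cells) in haplodeficient cells. The receptor and its ligand were thus placed differently: descending vasa recta-like cells were second in Edn1 and last among endothelial subtypes in Ednrb. Arterial-like cells carried both, with Ednrb at 171 and 99.8 CPM. In arterial-like cells, 16 of 56 control and 18 of 77 haplodeficient cells had UMIs of both genes.

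Between the libraries, Ednrb differed in opposite directions among endothelial subtypes. It was higher in haplodeficient glomerular-like cells (ratio 1.52, 1.224 to 1.90). It was lower in capillary-like cells (0.590, 0.466 to 0.752), in arterial-like cells (0.583, 0.408 to 0.827) and in Calca-led cells (0.772, 0.601 to 0.996). None of these passed the size rule, which called 2.41%, 2.14%, 2.31% and 1.94% of the eligible genes in these subtypes. Over the whole class Ednrb was at 234 CPM in control and 259 CPM in haplodeficient cells (ratio 1.11, 0.998 to 1.23). With equal weights the direction turned, to 320 and 290 CPM, a ratio of 0.906. After thinning each cell to 1000 UMIs, 26 of 75 haplodeficient (34.7%) and 7 of 28 control glomerular-like cells had an Ednrb UMI, with overlapping intervals. Unthinned, the shares were 75.9% and 68.8%.

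**Figure D2:**
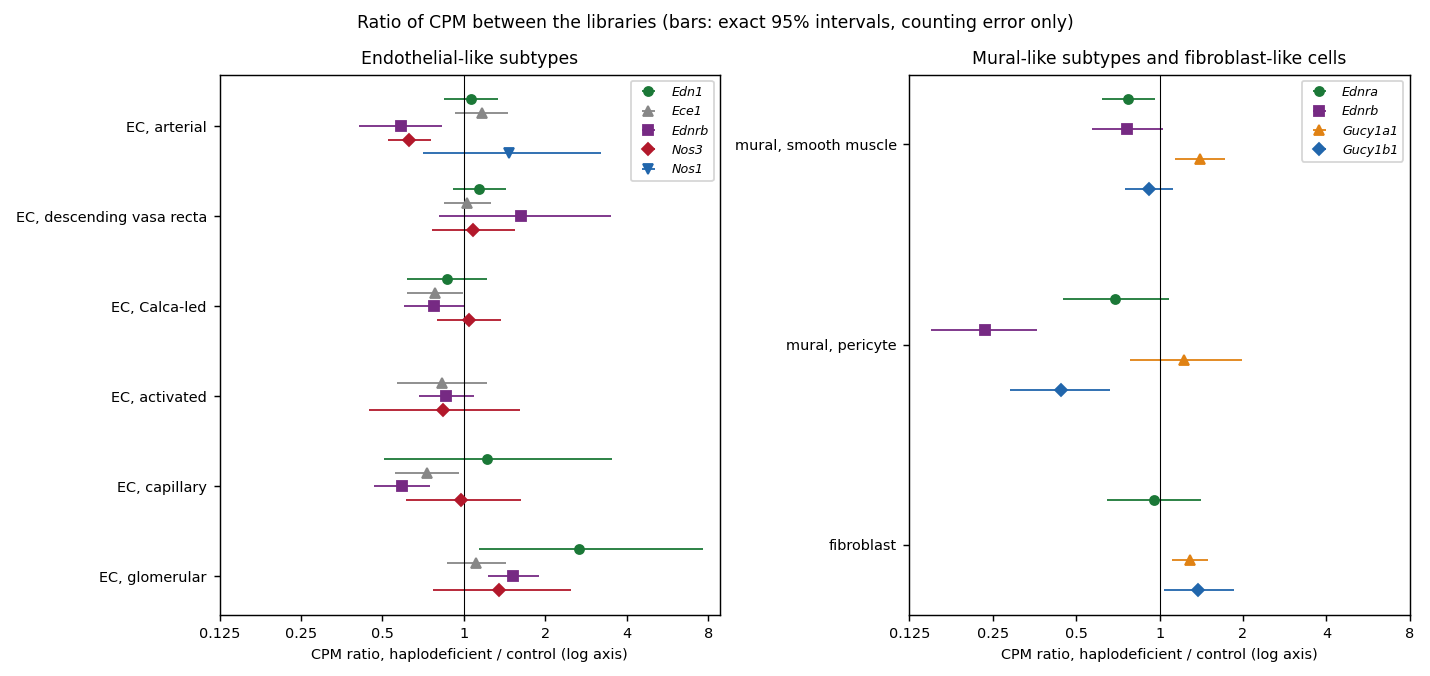
Ratio of haplodeficient to control CPM (log axis) for each eligible gene in endothelial-like subtypes (left) and in mural-like subtypes and fibroblast-like cells (right), with exact 95% intervals for counting error. Ednrb lies above 1 in glomerular-like cells and below 1 in capillary-like and arterial-like cells, and Nos3 lies below 1 in arterial-like cells.

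Ednrb also passed the size rule in principal or connecting tubule-like cells, where it is known to restrain salt and water uptake. The control library had 27.6 CPM (23.7 to 32.1; 173 UMIs in 106 of 514 cells) and the haplodeficient library 7.77 CPM (5.84 to 10.1; 54 UMIs in 40 of 628 cells). The ratio was 0.281 (0.203 to 0.384), a log2 ratio of -1.35, and the rule called 1.9% of 9112 eligible genes in this class, 1.28% lower. Thinned to 1000 UMIs, 10 of 500 control and 3 of 601 haplodeficient cells had an Ednrb UMI. No control cell of the class had more than 7 Ednrb UMIs, and without the richest cell of each library the log2 ratio was -1.37. With likely doublets kept it was -0.86, below the rule. Free RNA made up an estimated 1.81% of these UMIs in control and 7.01% in haplodeficient cells, and with it subtracted the log2 ratio was -1.46. The class held Edn1 at nearly equal levels in both libraries (ratio 1.05, 0.873 to 1.25).

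In mural-like cells both receptors were read. Ednra, the contractile receptor, was at 278 CPM (238 to 322) in control and 210 CPM (185 to 237) in haplodeficient cells, with 97 of 191 and 145 of 270 cells holding a UMI. Pericyte-like cells (27 control and 43 haplodeficient cells) had 496 and 344 CPM, and smooth muscle-like cells (164 and 227 cells) 248 and 191 CPM. Fibroblast-like cells had 80.0 and 76.3 CPM. In endothelial-like cells Ednra had 2 UMIs in each library, at most 0.889 CPM, so the receptors were divided between endothelium (Ednrb) and mural cells (Ednra with Ednrb). The mural-like ratio of Ednra was 0.755 (0.622 to 0.919), and both subtypes lay below 1 (0.770, 0.619 to 0.962 in smooth muscle-like, and 0.693, 0.447 to 1.08 in pericyte-like cells).

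Ednrb in mural-like cells was at 232 CPM in control and 121 CPM in haplodeficient cells, a ratio of 0.521 (0.412 to 0.657). Its log2 ratio of -0.91 fell short of the size rule but passed it with doublets kept (-1.44) and with each cell named on its own markers (-1.60), and was -1.67 with the subtypes weighted equally. The difference was larger in pericyte-like cells, at 900 CPM (700.5 to 1139) in control, from 69 UMIs in 11 cells, and 211 CPM (145 to 298) in haplodeficient, from 32 UMIs in 13 cells. This value passed the size rule with a log2 ratio of -2.06, in a class where 9.52% of 1376 eligible genes did, 5.67% lower. A single control cell held 28 of the 69 UMIs. Without the richest cell of each library the levels were 597 and 181 CPM and the log2 ratio -1.70. Control pericyte-like cells carried 4058 CPM of proximal tubule markers (7 of 10 with a UMI), of which haplodeficient cells had 0 of 10. Endothelial markers, of a class that also holds Ednrb, summed to 574 CPM (4 of 10 with a UMI, Cdh5 and Kdr at 0) in control and 1328 CPM (10 of 10) in haplodeficient cells. The part of either in the difference was not tested. Over 9 alternatives the log2 ratio lay between -2.27 and -1.12. With a minimum of 1000 UMIs per cell, which is among these alternatives, the control level was 241 CPM. Smooth muscle-like cells could not be named there and the pericyte-like cells were not the same set. That level is therefore not to be read against the main haplodeficient level. Thinned to 1000 UMIs, 5 of 25 control and 8 of 40 haplodeficient pericyte-like cells had an Ednrb UMI, the same share of 20%, against 40.7% and 30.2% unthinned. In smooth muscle-like cells the intervals of Ednrb overlapped, at 142 and 108 CPM (ratio 0.765, 0.571 to 1.03).

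In mural-like cells, 37 of 97 control cells with an Ednra UMI also had one of Ednrb (38.1%, 28.5 to 48.6), against 19 of 94 without Ednra (20.2%, 12.6 to 29.8). The haplodeficient library had 31.7% (24.3 to 39.96) and 21.6% (14.7 to 29.8). Cells with an Ednra UMI were also deeper, with a median of 3399 against 2790.5 UMIs in control and 4672 against 3645 in haplodeficient cells.

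Nos3, the endothelial synthase, was concentrated in arterial-like cells, at 603 CPM (537 to 675; 303 UMIs) in control and 379 CPM (330 to 434; 209 UMIs) in haplodeficient cells. Calca-led cells followed at 215 and 223 CPM. The other subtypes had between 62.1 CPM (glomerular-like, control) and 97.1 CPM (capillary-like, control), and their intervals overlapped each other in both libraries. Endothelial-like cells held 75.3% of the control and 70.2% of the haplodeficient Nos3 UMIs, and cells without a class held 19.1% and 22.8%. Outside endothelium no class exceeded 5.91 CPM apart from haplodeficient pericyte-like cells, with 1 UMI.

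Arterial-like cells were the subtype in which Nos3 differed beyond counting error. Its ratio there was 0.629 (0.525 to 0.753), a log2 ratio of -0.66, short of the size rule. In the other subtypes the ratio ran from 0.838 (0.445 to 1.61) in activated to 1.35 (0.771 to 2.49) in glomerular-like cells, and each interval included 1. Whether the arterial-like ratio differs from the others was not tested. Thinned to 1000 UMIs, 23 of 55 control arterial-like cells had a Nos3 UMI (41.8%, 28.7 to 55.9) against 15 of 76 haplodeficient cells (19.7%, 11.5 to 30.5). The unthinned shares were 73.2% and 64.9%. Over the whole class the ratio was 0.656 (0.583 to 0.738), from 220 to 144 CPM, and with equal weights it was 0.822. In the same arterial-like cells Edn1 and Ece1 had ratios of 1.06 and 1.16, so the ligand and its enzyme did not share the lower level of the synthase.

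UMIs of Edn1 and Nos3 were found together in 29 of 56 control and 31 of 77 haplodeficient arterial-like cells. In descending vasa recta-like cells, rich in Edn1 and poor in Nos3, both were found in 15 of 92 and 28 of 160 cells.

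Nos1, the neuronal synthase, was found mainly in 2 places. The first was the thick ascending limb-like class, with 142 control and 158 haplodeficient UMIs, which made up 77.6% and 86.8% of all Nos1 UMIs. The class mean was low, at 8.86 CPM (7.47 to 10.4) and 7.64 CPM (6.49 to 8.93). Within it Nos1 was concentrated in cells with UMIs of at least 2 of 6 macula densa genes (Pappa2, Robo2, Ptgs2, Avpr1a, Oxtr and Mcub), the sensor cells of the limb that signal to the glomerular arterioles. The 62 such control cells had 59.9 CPM (50.2 to 71.0) and the 141 haplodeficient cells 20.96 CPM (17.3 to 25.2). Cells with 1 of these genes had 1.87 and 4.40 CPM, and cells with none 0.105 and 1.70 CPM. Shares of cells followed the same order, with a Nos1 UMI in 35.5% (23.7 to 48.7) and 22.0% (15.5 to 29.7) of the cells with at least 2 of the genes. Over the whole class the haplodeficient share was the higher, at 5.48% (4.24 to 6.96) against 2.81% (1.89 to 4.01) in control.

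The cells with at least 2 macula densa genes were deeper, with medians of 30140 and 32773 UMIs against 9596 and 7410.5 in those with none, so a cell can enter the group through depth alone. Pappa2 itself differed, at 21.3 CPM in control and 64.0 CPM in haplodeficient thick ascending limb-like cells, with a UMI in 50 and 181 cells. Robo2 went the other way, at 49.8 and 33.3 CPM. Mcub was at 12.9 and 16.7 CPM, Ptgs2 at 2.18 and 2.22 CPM, Avpr1a at 1.44 and 1.74 CPM, and Oxtr at 0 and 0.145 CPM. The groups are therefore not matched between the libraries, and the difference in Nos1 within them cannot be told apart from this. Without the cell richest in Nos1 (28 and 19 UMIs) the levels were 48.0 and 17.6 CPM.

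**Figure D3:**
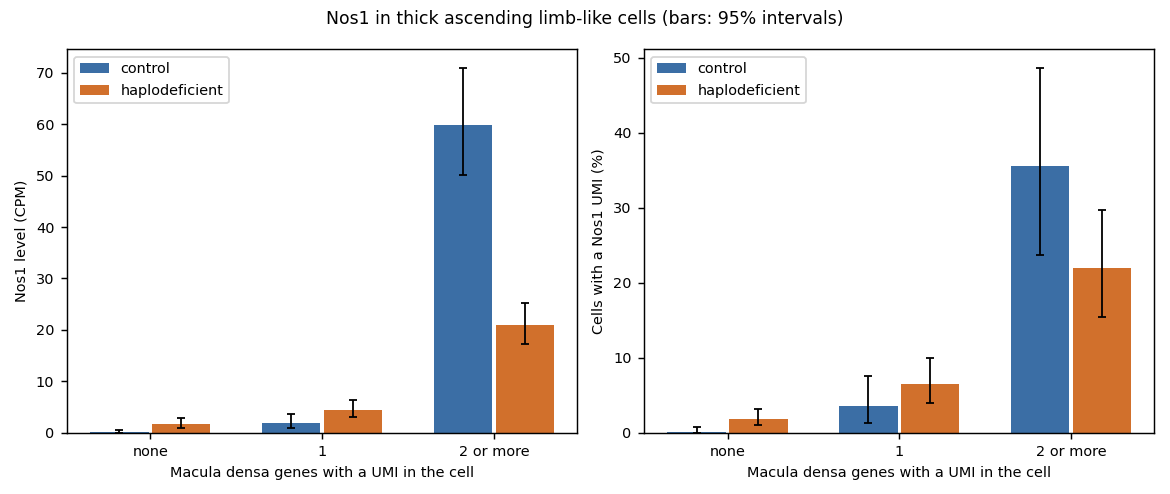
Nos1 in thick ascending limb-like cells by the number of macula densa genes with a UMI in the cell, as CPM (left, 95% Poisson intervals) and as the percent of cells with a Nos1 UMI (right, exact 95% intervals). Both rise with the number of macula densa genes in the control (blue) and haplodeficient (orange) library.

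The second place was arterial-like endothelium. Nos1 had 25.9 CPM (13.8 to 44.2; 13 UMIs in 9 of 56 cells) in control and 38.1 CPM (23.6 to 58.2; 21 UMIs in 11 of 77 cells) in haplodeficient arterial-like cells, with overlapping intervals. All other endothelial-like cells, 296 in control and 688 in haplodeficient, had 0 Nos1 UMIs, which allows up to 1.72 and 0.737 CPM, or 1.01% and 0.436% of cells with a UMI. Free RNA held 1.10 and 0.909 CPM. No arterial-like cell had more than 4 Nos1 UMIs. Of the cells with a Nos1 UMI, 8 of 9 in control and 9 of 11 in haplodeficient also had a UMI of Nos3. Those cells were deep, with medians of 13704 and 13424 UMIs against 5821 and 4285 in the other arterial-like cells. Mural-like, fibroblast-like and podocyte-like cells had 0 Nos1 UMIs in both libraries. Nos1 was left out of the clustering, yet it was among the 10 genes that led the arterial-like cluster.

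Gucy1a1 and Gucy1b1, the subunits that form the nitric oxide receptor, were placed in mural and fibroblast-like cells. Gucy1a1 had its highest values in fibroblast-like cells, at 468 CPM (413 to 527) in control and 603 CPM (553 to 655) in haplodeficient cells. Pericyte-like cells had 365 CPM (243 to 528) and 449 CPM (349 to 569), which overlapped the fibroblast-like intervals in both libraries, and with doublets kept the highest control value was that of pericyte-like cells (374 CPM). Smooth muscle-like cells had 227 and 316 CPM. Gucy1b1 was highest in pericyte-like cells, at 692 CPM (518 to 905) in control and 304 CPM (222 to 405) in haplodeficient cells. Smooth muscle-like cells had 276 and 253 CPM, with overlapping intervals of the pericyte-like and smooth muscle-like cells in the haplodeficient library, and fibroblast-like cells had 123 and 170.0 CPM. In endothelial-like cells each subunit had at most 14 UMIs per library, below 6 CPM, so the class that makes nitric oxide by Nos3 held almost none of its receptor.

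Between the libraries the subunits went in opposite directions in mural-like cells. Gucy1a1 was higher in the haplodeficient library (243 and 332 CPM, ratio 1.37, 1.13 to 1.65) and Gucy1b1 lower (326 and 259 CPM, ratio 0.794, 0.665 to 0.950). When each cell was named on its own markers in place of by cluster, the log2 ratio of Gucy1a1 turned from 0.44 to -0.27 in mural-like and from 0.47 to -0.28 in smooth muscle-like cells. Fibroblast-like cells were different, since both subunits were higher in the haplodeficient library, with ratios of 1.29 (1.11 to 1.497) for Gucy1a1 and 1.38 (1.03 to 1.85) for Gucy1b1. In pericyte-like cells Gucy1b1 passed the size rule with a log2 ratio of -1.17 (ratio 0.439, 0.289 to 0.665; 53 and 46 UMIs). It fell short of the rule with a minimum of 1000 UMIs per cell (-0.52), with the 8 genes and their pathway kept in the clustering (-0.68) and with doublets kept (-0.86). In smooth muscle-like cells its ratio was 0.914 (0.748 to 1.12).

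The receptor is active as a pair of an alpha and a beta subunit, and Gucy1a2 can take the place of Gucy1a1. UMIs of Gucy1a1 and Gucy1b1 together were found in 65 of 191 control (34.03%, 27.3 to 41.2) and 121 of 270 haplodeficient mural-like cells (44.8%, 38.8 to 50.96). In fibroblast-like cells both were found in 33 of 110 (30.0%, 21.6 to 39.5) and 57 of 122 cells (46.7%, 37.6 to 56.0). Median depth also differed, at 3162 and 4154.5 UMIs in mural-like and 4592.5 and 6322 UMIs in fibroblast-like cells, so these shares cannot be told apart from depth.

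Across 44 points (22 classes in each of 2 libraries), the levels of Ednra and Gucy1b1 had a Pearson r of 0.98, those of Gucy1a1 and Gucy1b1 0.96 and those of Ednra and Gucy1a1 0.93, on log2 of CPM plus 5. Nos3 followed Ece1 at 0.82 and Ednrb at 0.71, and Edn1 followed Nos3 at 0.66. The points share libraries and depth, so these are descriptions. The genes most like Nos3 were Palmd (0.98), Kif26a (0.98) and Sox18 (0.97). Those most like Ednra were Mrvi1 (0.97), 4933431K23Rik (0.96) and Trpc6 (0.96), of which 4933431K23Rik overlaps Ednra on the other strand and had 5 and 7 UMIs in pericyte-like cells. Nos1 was most like Gkn3 (0.89), Cytl1 (0.87) and Adh7 (0.84), of which Gkn3 and Cytl1 led the arterial-like cluster. Edn1 was most like Unc13b (0.93), Fzd6 (0.91) and Tspan8 (0.87), and Ece1 most like Ppp1r13b (0.89), Grasp (0.89) and Dll4 (0.87). Ednrb was most like Emid1 (0.92), Arhgef7 (0.91) and Rapgef4os1 (0.91). Gucy1a1 was most like Cd248 (0.98), Egflam (0.96) and Col6a3 (0.96), and Gucy1b1 most like Mrvi1 (0.97), Pakap (0.97) and Cd248 (0.96).

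Other genes of the pathway were read from 4 lists with 48 measured genes. In endothelial-like cells 28 were eligible, of which 12 were higher and 16 lower in the haplodeficient library, with 0 and 3 past the size rule. Their median log2 ratio was -0.09, against -0.01 over all 9057 eligible genes, of which 1.38% were past the rule and 1.07% past it and lower. Of the 8 genes themselves, 4 were eligible in endothelial-like cells and none passed the rule. The 3 were Pde3a, a phosphodiesterase inhibited by cyclic GMP, at 143 and 60.8 CPM, Ass1, an enzyme that remakes arginine, at 69.8 and 31.6 CPM, and Slc7a1, an arginine transporter, at 94.2 and 44.6 CPM. Pde3a was mostly arterial-like, at 561 CPM in control and 430.0 CPM in haplodeficient arterial-like cells (ratio 0.766, 0.642 to 0.914). The share of these cells was also smaller in the haplodeficient library, and its part in the class value was not tested. Slc7a1 was highest in descending vasa recta-like cells, at 219 and 95.8 CPM. Ass1 was highest in control Calca-led cells, at 165 CPM against 50.2 CPM, where proximal tubule markers, a class rich in Ass1, summed to 981 and 21.2 CPM; their part was not tested. The genes that respond to flow, Klf2, Klf4 and Thbd, were all 3 eligible and lower, with Klf2 at 1913 and 1690 CPM (ratio 0.883), Klf4 at 1171 and 986 CPM and Thbd at 205 and 181 CPM. By subtype the 3 genes were all lower in arterial-like and in descending vasa recta-like cells, with median log2 ratios of -0.23 and -0.47. In each of the other 4 subtypes 2 were higher and 1 lower, with medians from 0.03 in Calca-led to 0.46 in capillary-like cells. Past the size rule were Thbd in arterial-like cells, lower at 247 and 111 CPM (ratio 0.449, 0.325 to 0.614), and Klf4 in activated cells, higher at 257 and 530.4 CPM (ratio 2.07, 1.505 to 2.88). The rule called 2.31% of all eligible genes in arterial-like and 2.83% in activated cells.

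In mural-like cells 30 of the 48 genes were eligible, 12 higher and 18 lower, with 0 and 2 past the size rule. The median log2 ratio was -0.15, against 0.05 over 7223 eligible genes, of which 1.84% were past the rule and 0.955% past it and lower. The list of the cyclic GMP response had 12 eligible genes, of which 10 were lower and 2 higher, none past the rule, with a median of -0.34. This was not particular to mural-like cells. With fewer eligible genes, the median of the list was also below 0 in most other classes. Among them were macrophage-like (-0.42), T-cell-like (-0.34), dendritic-like (-0.28), intercalated-like (-0.20) and fibroblast-like cells (-0.19). It was above 0 only in distal convoluted tubule-like (0.19), proximal tubule-like (0.17) and neutrophil-like cells (0.05). In mural-like cells Prkg1, the kinase that cyclic GMP activates, was at 2724 CPM in control and 1946 CPM in haplodeficient cells (ratio 0.714). Gucy1a2, another subunit of the receptor, was there at 190.3 and 127 CPM. The 2 genes past the rule were Ass1, at 57.7 and 4.03 CPM, and Asl, at 31.2 and 10.5 CPM. Both enzymes are abundant in proximal tubule, whose markers were also higher in control mural-like cells (978 and 44.4 CPM), and the part of that RNA was not tested. Klf2 (908 and 1661 CPM) and Klf4 (378 and 607 CPM) were higher in the haplodeficient mural-like cells, with ratios of 1.83 and 1.61, while both were lower in the endothelial-like class; whether these ratios differ was not tested. Among the classes, the median log2 ratio of the eligible flow genes was largest in proximal tubule-like (1.47), neutrophil-like (1.13), intercalated-like (0.90) and principal or connecting tubule-like cells (0.80). Mural-like (0.77) and distal convoluted tubule-like cells (0.71) followed. In each of these classes 2 genes were eligible. Both passed the size rule, higher in the haplodeficient library, in proximal tubule-like cells. So did 1 gene each in neutrophil-like, intercalated-like, principal or connecting tubule-like and injured tubule-like cells. The rule called 1.62%, 1.82%, 0.254%, 0.615% and 0.642% of all eligible genes higher in these classes, in this order. The median was also above 0 in injured tubule-like (0.51), thick ascending limb-like (0.45), T-cell-like (0.34), dendritic-like (0.30) and podocyte-like cells (0.21). It was below 0 in descending thin limb-like (-0.27), endothelial-like (-0.18), fibroblast-like (-0.12), monocyte-like (-0.02) and macrophage-like cells (-0.002). In pericyte-like cells it was -0.57. No gene of the list of endothelin ligands and proteases was eligible in either class.

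**Figure D4:**
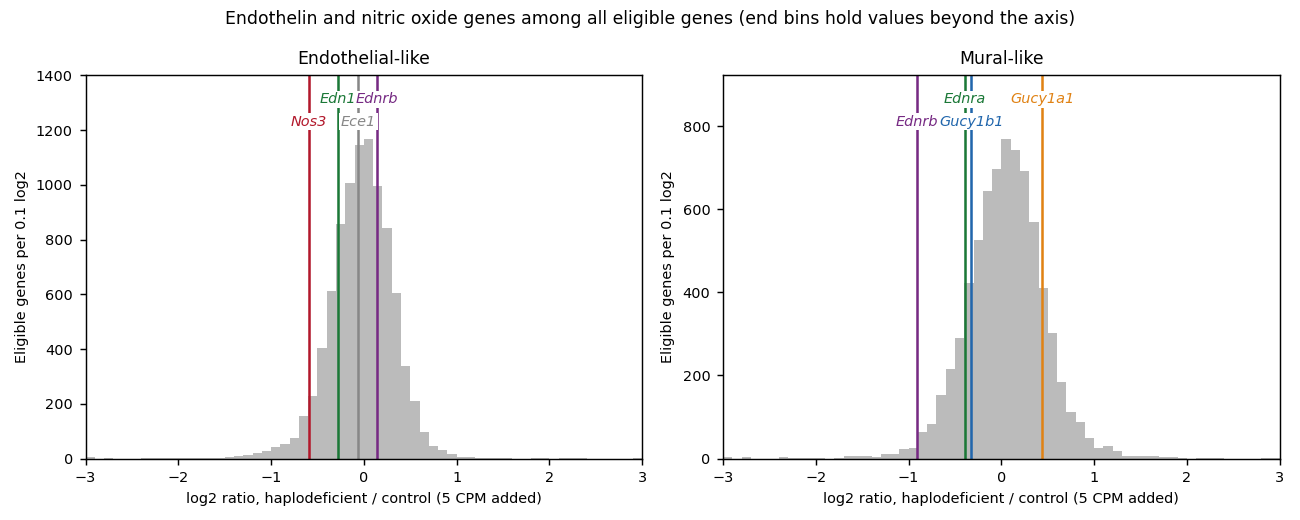
Log2 ratio of haplodeficient to control level (5 CPM added) for all eligible genes in endothelial-like (left) and mural-like (right) cells, in bins of 0.1, with the eligible endothelin and nitric oxide genes as coloured lines. Nos3 in endothelial-like cells (-0.59) and Ednrb in mural-like cells (-0.91) lie furthest out of the 8 genes, both inside the size rule of 1.

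Counted over every class and subtype, the 8 genes gave 65 eligible pairs of gene and class, of which 4 passed the size rule. All 4 were lower in the haplodeficient library: Ednrb in pericyte-like and in principal or connecting tubule-like cells, Gucy1b1 in pericyte-like cells and Ece1 in T-cell-like cells. In each of these classes the rule also called more of all eligible genes lower than higher. The lower and higher shares were 5.67% and 3.85% in pericyte-like and 1.28% and 0.615% in principal or connecting tubule-like cells. In T-cell-like cells they were 1.8% and 0.837%. In either direction the rule called 1.9% in principal or connecting tubule-like and 2.64% in T-cell-like cells. The pairs overlap, since a subtype is part of its class, and 2 of the 4 lie in pericyte-like cells, where the share of genes past the rule (9.52%) was the highest of all classes and subtypes compared; the lowest was 0.783%, in intercalated-like cells.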

How the data were processed

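Single-cell RNA of injured kidney was deposited as raw UMI count matrices of all barcodes, 1 per library, made with Cell Ranger 4 per the file headers; the build is mm10 per the submitters' processing notes. Libraries held 134190236 (control) and 114668145 (haplodeficient) counts. The 8 genes, the lists and the markers were chosen with earlier results of these data known.

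Kept barcodes had 500 UMIs or more, 200 genes or more and a mitochondrial share of 50% or less. The cells with the highest Scrublet scores (0.8% per 1000 cells) were removed as likely doublets, 715 and 804. Cells of both libraries were clustered together (scanpy 1.11.5; leidenalg 0.10.2, resolution 1; 2000 variable genes, 30 components, 15 neighbours), without the 8 genes and 49 pathway genes, of which 48 were measured. A cluster took a name from at least 3 markers, each in 10% of cells and at least 2-fold above the rest. Sub-clustering settings (resolution 1 for endothelial, 0.2 for mural) and the rules for mixed clusters were adjusted after seeing the data. Unnamed cells numbered 269 and 185, the mixed endothelial cells included.

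UMIs were summed by class and library and divided by the class total (CPM). Log2 ratios used CPM plus 5. Poisson intervals of levels, conditional binomial intervals of ratios and Clopper-Pearson intervals of shares (SciPy 1.17.1) are at 95% and cover counting error only. A count of 0 allows up to 3 counts. Shares were taken after thinning to 1000 UMIs per cell. Free RNA was read from barcodes of 1 to 100 UMIs, and its part of a class was estimated from markers of other classes. The size rule was tested on simulated data for endothelial-like sums (9027 genes). It recovered 0% of genes changed 1.5-fold, 30% at 2-fold, 98% at 3-fold and 100% at 4-fold, and called 0% of unchanged genes. The simulated counts held counting error only, around a profile shared by both libraries. The 0% thus does not cover differences between animals, libraries or cells. Smaller sums were not simulated, such as pericyte-like cells with 76641 and 151385 UMIs against 2249515 and 4619595 in endothelial-like cells.

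All 8 genes were named. From each pathway list with eligible genes, the 3 genes with the largest absolute log2 ratio in endothelial-like or mural-like cells were named, and for each of the 8 the 3 genes most like it. Subtype values, the flow genes in other classes and the promoter motifs were picked after values were seen. Gene positions are from GENCODE M21 (GRCm38), to which 32235 of 32285 gene IDs matched. Hashtag counts were not used here.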

Additional observations from a re-analysis of the deposited data

Results flagged for a closer look

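The ratios of haplodeficient to control CPM below were singled out by direction. The same gene lay beyond counting error in opposite directions among the classes, or among the subtypes of a class, taken separately. With 1 library per group none of these differences was tested. The share of all eligible genes whose ratio interval leaves out 1 was not counted. The list therefore does not set these genes apart from others. Edn1 was at 1.31 in descending thin limb-like and 1.31 in injured tubule-like cells but at 0.819 in endothelial-like and 0.811 in intercalated-like cells. The endothelial-like ratio turned to 1.09 with its subtypes weighted equally. Ednrb was at 1.52 in glomerular-like cells but at 0.583 in arterial-like, 0.590 in capillary-like and 0.772 in Calca-led cells. Ece1 was at 1.30 in distal convoluted tubule-like cells but at 0.448 in T-cell-like, 0.608 in dendritic-like, 0.645 in macrophage-like and 0.686 in thick ascending limb-like cells. The macrophage-like difference of Ece1 turned to the other direction with separate clustering of the libraries. Gucy1b1 was at 1.38 in fibroblast-like cells but at 0.794 in mural-like cells. Values that lay beyond counting error in 1 direction only within such a set, as for Ednrb in pericyte-like cells, stand in the report alone.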

How the results depend on the processing

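No paired analysis was possible because each group had 1 library. Over 16 alternatives, 653 log2 ratios of the 8 genes were recomputed in 65 pairs of gene and class, 612 stayed within the set tolerance, 41 moved further, and 619 kept their sign; of the 339 with an absolute main value of at least 0.3, 331 kept it. With doublets kept, Ednrb in mural-like cells was at -1.44 and 2 pairs passed the size rule in place of 4; 2 also passed with a mitochondrial limit of 25% and 2 with a minimum mean of 50 CPM. With each library clustered on its own, Edn1 was at -0.72 and Ednrb at 0.58 in endothelial-like cells. With each cell named on its own markers, mural-like values were -0.99 for Ednra, -1.60 for Ednrb, -0.27 for Gucy1a1 and -0.90 for Gucy1b1. With subtypes weighted equally, endothelial-like values were 0.12 for Edn1, -0.14 for Ednrb and -0.28 for Nos3, and mural-like values -1.67 for Ednrb and -0.79 for Gucy1b1. The number of endothelial-like genes past the rule (1.38% of those eligible) became 352 with separate clustering, 78 with cells named singly, 196 with a pseudocount of 1 CPM, 39 at 50 CPM and 206 with no minimum. The 133 mural-like genes became 567 with cells named singly, 32 at 50 CPM and 212 with no minimum. Apart from the equal weights and the minimums, which follow from their construction, the cause was not tested. Of 130 shares, 127 were higher at 2000 UMIs per cell and 91 moved; of 115 levels, 22 moved. Leaving out the richest cell and keeping the mixed endothelial cells were chosen after seeing the data. Mural subtypes could not be named with a 25% limit or separate clustering, smooth muscle-like cells with a 1000-UMI minimum or the genes kept in the clustering, and Calca-led cells could not be matched across clusterings, so these gave no value there.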
